A study of Rattus norvegicus with 12 samples.

Results

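The insulin and insulin-like growth factor (IGF) signalling genes followed here were Igf1 and Igf2, the 2 growth factors, Insr and Igf1r, the 2 receptors, Irs1 and Irs2, the receptor substrates, Pik3r1 and Akt2, which carry the signal inside the cell, and Slc2a1 and Slc2a4, the glucose transporters GLUT1 and GLUT4. The list was made with earlier results of these data known, and its rows were picked by gene symbol. All 10 had counts, out of 21239 genes with counts and 37246 genes listed. RNA-seq was run on the left atrium of male rats in 4 groups of 3 rats, which were 14 weeks old at purchase and were then dosed for 4 weeks. The WKY group was Wistar-Kyoto rats on saline (7.5 mL/kg/d), the normotensive control strain, and the SHR group was spontaneously hypertensive rats on the same saline. The ARB group was spontaneously hypertensive rats on valsartan (30 mg/kg/d), which blocks the angiotensin II type 1 receptor, and the ARNI group was spontaneously hypertensive rats on sacubitril/valsartan (60 mg/kg/d), which adds an inhibitor of neprilysin to that block. WKY and SHR are separate inbred strains, so blood pressure and every other strain difference go together in any comparison between them.

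Insulin and the IGFs bind receptor tyrosine kinases at the cell surface, and the activated receptors phosphorylate the IRS proteins. These recruit phosphoinositide 3-kinase (PI3K), whose lipid product activates the Akt kinases. Akt then sends GLUT4 from stores inside the muscle cell to its surface, restrains the FoxO transcription factors and drives protein synthesis, and in the heart the pathway is known for physiological growth and for glucose uptake.

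Several facts about the libraries came before any result. The titles of 6 saline libraries, and the phenotype entries of the 3 named WKY, went against the library names in the titles' brackets, and the bracketed names, which are also the column names of the count table, were used. The strain entry read Wistar-Kyoto for all 12 libraries, so the SHR strain of a library rests here on its bracketed name or, for the treated rats, on its title and phenotype entry. Ndufa10l1 was at 0 CPM (the count as a part of 1000000 counts of the library) in the 3 WKY libraries and at 54.0 to 119 CPM in the other 9, so the treated libraries resembled the libraries named SHR. The atrial markers Myl7, Myl4, Sln, Nppa, Bmp10 and Mybphl summed to 52.4 to 280 CPM in the WKY libraries, although the tissue was labelled left atrium, against 35219 to 77097 CPM in 6 SHR-strain libraries. The ventricular markers Myl2, Myl3, Irx4 and Myh7 summed to 43253 to 43575 CPM in WKY and to 370 to 930 CPM in those 6. Library ARNI 2 was like WKY in this respect, with atrial markers at 74.2 CPM and ventricular markers at 18544 CPM, and libraries SHR 2 and ARB 3 carried both sets. A chamber marker score, the mean log2 CPM of the atrial list minus that of the ventricular list, ran from −10.94 to −10.69 in WKY and from 6.68 to 9.86 in the 6 libraries with atrial markers, and it was 0.66 in SHR 2, 0.91 in ARB 3 and −8.59 in ARNI 2. Strain and chamber markers therefore cannot be told apart in a comparison with WKY. White adipocyte markers summed to 434 CPM in ARB 2 and to 237 CPM in ARNI 3, against 2.72 to 24.0 CPM in the other 10 libraries. Epicardial and mesothelial markers summed to 59.2 to 81.4 CPM in WKY and to 207 to 448 CPM in the 6 libraries with atrial markers, and their part in the members' values was not tested. Totals ran from 11252361 to 15823525 counts per library.

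Promoter sequences are shown for Insr, Igf1r, Pik3r1 and Akt2, because these are the 4 genes that passed the test in a comparison with WKY. Each is the RefSeq sequence of build GRCr8 from 250 bases before to 50 bases after the annotated start, read 5′ to 3′ on the gene's strand, with matches to the searched motifs in capitals. The motifs, searched on both strands, were TGTTTAC (FoxO core), GGGCGG (GC box), CACGTG (E-box), CCAAT (the CCAAT box), TATAAA (the TATA box) and TGACGTCA (the cAMP response element), none of which contains another.
Insr (chr12:6128754-6129053, minus strand): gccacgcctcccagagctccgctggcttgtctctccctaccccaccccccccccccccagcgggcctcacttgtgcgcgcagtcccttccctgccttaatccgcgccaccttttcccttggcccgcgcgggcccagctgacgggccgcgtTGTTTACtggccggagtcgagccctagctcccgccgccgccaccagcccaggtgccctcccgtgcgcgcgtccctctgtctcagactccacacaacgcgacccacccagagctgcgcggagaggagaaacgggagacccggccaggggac
Igf1r (chr1:130959747-130960046, plus strand): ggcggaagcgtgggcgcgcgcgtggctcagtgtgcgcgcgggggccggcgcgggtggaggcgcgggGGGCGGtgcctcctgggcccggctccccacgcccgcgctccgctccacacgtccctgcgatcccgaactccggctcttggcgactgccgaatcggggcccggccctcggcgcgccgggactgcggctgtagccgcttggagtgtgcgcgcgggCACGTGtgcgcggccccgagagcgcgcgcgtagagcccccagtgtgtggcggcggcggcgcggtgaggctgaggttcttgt
Pik3r1 (chr2:34697611-34697910, minus strand): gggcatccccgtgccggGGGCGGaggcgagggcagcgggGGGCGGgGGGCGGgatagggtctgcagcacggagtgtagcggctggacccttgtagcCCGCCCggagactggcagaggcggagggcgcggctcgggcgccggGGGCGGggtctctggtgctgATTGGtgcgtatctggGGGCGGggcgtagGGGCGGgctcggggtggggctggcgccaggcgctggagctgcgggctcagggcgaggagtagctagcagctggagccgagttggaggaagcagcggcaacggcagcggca
Akt2 (chr1:92021667-92021966, plus strand): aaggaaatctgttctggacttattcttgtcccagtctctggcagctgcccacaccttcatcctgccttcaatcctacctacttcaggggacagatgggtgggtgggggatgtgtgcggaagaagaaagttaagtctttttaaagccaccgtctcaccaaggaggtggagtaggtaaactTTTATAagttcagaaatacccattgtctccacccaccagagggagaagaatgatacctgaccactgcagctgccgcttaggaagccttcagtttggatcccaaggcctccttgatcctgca

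The Insr window held the only FoxO core among the members, 100 bases before the start, a motif found in 3.78% of 33469 RefSeq promoters of this length. The Pik3r1 window held 7 GC boxes and 1 CCAAT box, motifs present at least once in 33.1% and 37.5% of promoters. The Igf1r window was 78% G and C and held a GC box and an E-box, the latter in 6.42% of promoters, whereas the Akt2 window was 49.7% G and C and held only a TATAAA on the opposite strand, in 14.2% of promoters. No member had the cAMP response element in its window. A promoter was matched for 8 of the 10 genes, not for Irs2 or Slc2a4. The matches are descriptions of letters, and no binding was measured.

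**Figure D1:**
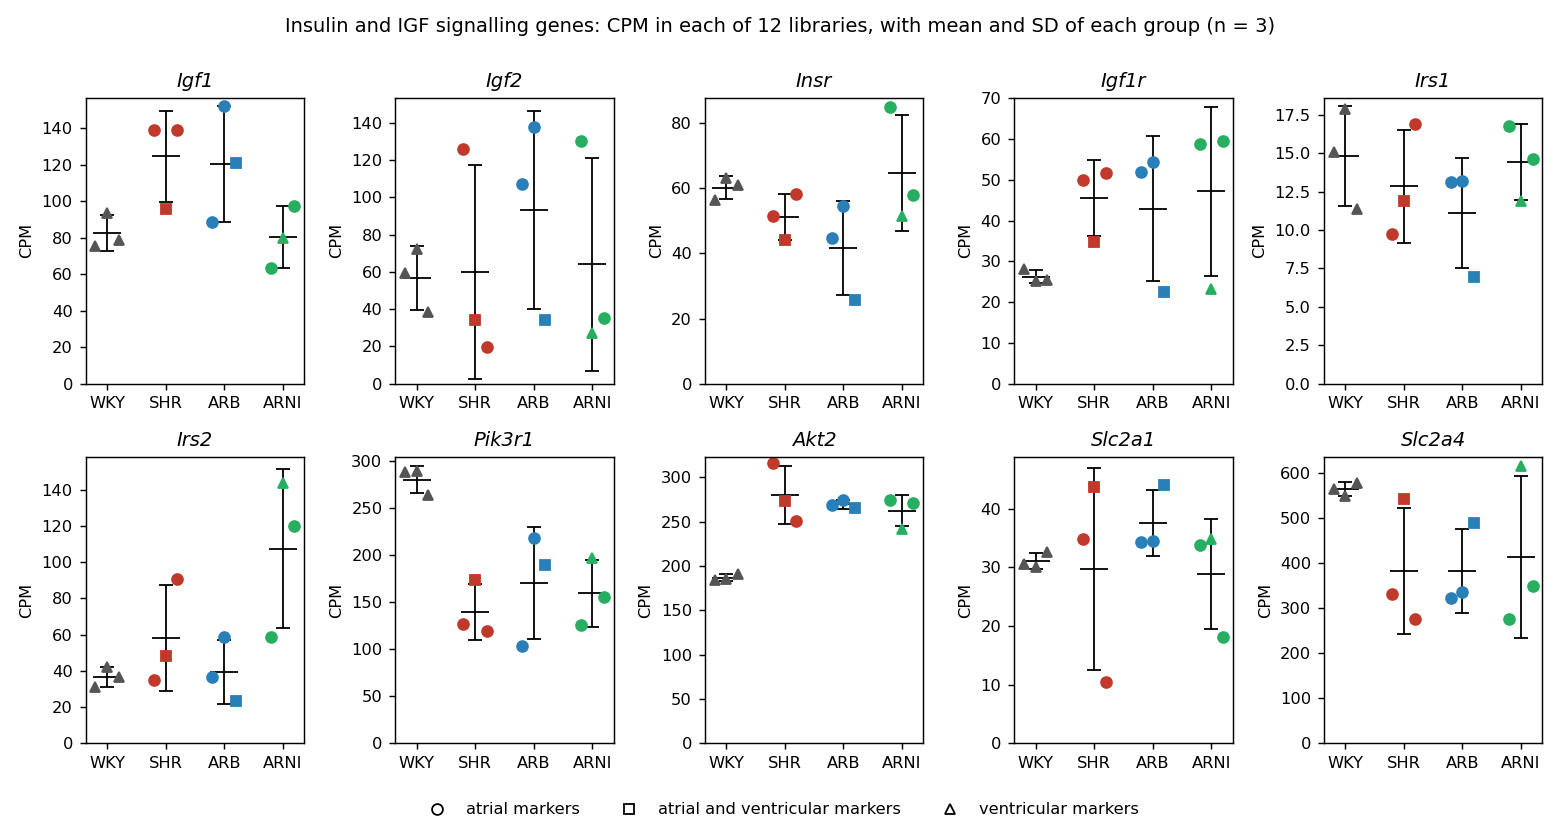
CPM (vertical axis, from 0) of each of the 10 genes in the 12 libraries, by group, with the group mean and SD (n = 3); circles are libraries with atrial markers, triangles those with ventricular markers and squares those with both. Akt2 was at 184 to 191 CPM in WKY and at 242 CPM or more in all 9 SHR-strain libraries, whereas Slc2a4 and Igf1r sorted by symbol shape more than by group.

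The study compared SHR with WKY to ask how the atrial transcriptome differed between hypertensive and normotensive rats. These libraries cannot answer that alone, because the WKY libraries carried ventricular markers, so strain and chamber markers differ together in each value below. Igf1r was higher in SHR, by 0.66 on the log2 scale, and Insr and Pik3r1 were lower, by 0.37 and 1.13. Thus 3 of 10 members passed edgeR's quasi-likelihood test (p-values adjusted by Benjamini-Hochberg over 13794 genes, and called up to 0.05), 1 higher and 2 lower. Of all genes tested 20.6% were called, 12.3% higher and 8.26% lower, so a call did not by itself set the members apart. Only Pik3r1 also passed a log2 change of 1 in size, which with the adjusted p was met by 8.89% of genes. CPM levels below are scaled by library total alone, whereas fold changes use TMM (trimmed mean of M-values) scaling. With TMM all genes had a median log2 fold change of 0.01, and without it of 0.15, and the share of called genes that were higher in SHR was 59.9% with TMM and 74.7% without.

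Among the ligands, Igf1 (gene ID 24482), the growth factor that mediates much of growth hormone action and is also made locally by heart cells, was at 75.7, 93.8 and 78.6 CPM in WKY and at 139, 95.6 and 139 CPM in SHR. Every SHR library was above every WKY library, narrowly so for SHR 2. The fitted difference was 0.45 ± 0.15 (SE) on the log2 scale, and the adjusted p in edgeR's quasi-likelihood test was 0.0768. Igf2 (24483), a mainly fetal growth factor, was at 59.2, 72.4 and 38.7 CPM in WKY and at 126, 34.4 and 19.5 CPM in SHR. The SHR libraries lay on both sides of the WKY range, and the log2 fold change was −0.04 ± 0.66 (SE). The insulin genes themselves, Ins1 and Ins2, had 0 reads in all 12 libraries, where 3 counts correspond to 0.190 to 0.267 CPM.

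Of the receptors, Igf1r (25718), which binds both IGFs, was at 28.0, 25.1 and 25.4 CPM in WKY and at 50.0, 34.8 and 51.7 CPM in SHR. The groups did not overlap, and SHR 2, the library with both sets of chamber markers, was the lowest of the SHR libraries. On the log2 scale it was higher by 0.66 ± 0.14 (SE; adjusted p = 0.0229 in edgeR's quasi-likelihood test). Insr (24954), the insulin receptor, was at 56.3, 63.0 and 61.1 CPM in WKY and at 51.6, 44.0 and 58.1 CPM in SHR. Its CPM ranges overlapped, with SHR 3 inside the WKY range, and the scaled log2 fold change was −0.37 ± 0.10 (SE; adjusted p = 0.0425). Without TMM scaling the Insr value was −0.23 and its adjusted p was 0.192.

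The receptor substrates did not pass the test. Irs1 (25467), the IRS protein of muscle and fat in particular, was at 15.1, 17.9 and 11.4 CPM in WKY and at 9.76, 11.9 and 16.9 CPM in SHR, with overlapping groups. Irs2 (29376), the IRS protein best known from liver and the insulin-producing beta cells, was at 31.0, 42.3 and 36.7 CPM in WKY and at 35.2, 48.4 and 90.8 CPM in SHR. SHR 3 was far above the other 5 libraries, and the log2 fold change of 0.51 ± 0.32 (SE) had an adjusted p of 0.267 in edgeR's quasi-likelihood test.

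Pik3r1 (25513), which codes for the p85-alpha regulatory subunit of PI3K and for its shorter forms, was at 288, 289 and 264 CPM in WKY and at 127, 174 and 119 CPM in SHR. The groups lay well apart, with SHR 2 the highest of the SHR libraries. On the log2 scale the difference was −1.13 ± 0.19 (SE; adjusted p = 0.0139 in edgeR's quasi-likelihood test), a level 2.18-fold lower in SHR. Akt2 (25233), the Akt form most tied to insulin-driven glucose uptake, was at 184, 185 and 191 CPM in WKY and at 316, 273 and 251 CPM in SHR. The groups did not overlap and every SHR library was clearly above WKY, yet the log2 fold change of 0.45 ± 0.13 (SE) had an adjusted p of 0.0522, just outside the threshold. DESeq2 put it at 0.0251.

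Slc2a4 (25139), the insulin-responsive transporter GLUT4, was at 565, 548 and 579 CPM in WKY and at 331, 542 and 275 CPM in SHR. All 3 SHR libraries were below WKY, but SHR 2 only just. The log2 fold change was −0.68 ± 0.28 (SE; adjusted p = 0.129 in edgeR's quasi-likelihood test). Slc2a1 (24778), the transporter GLUT1 of basal uptake, was at 30.6, 30.0 and 32.6 CPM in WKY and at 34.9, 43.8 and 10.5 CPM in SHR, so that the SHR libraries lay on both sides of WKY. Non-overlap by itself was common here. It held for 5 members (Igf1, Igf1r and Akt2 higher, Slc2a4 and Pik3r1 lower), while 49.6% of all genes tested had groups that did not overlap, 33.7% higher and 15.9% lower.

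Single libraries moved these counts. Without SHR 2, 5 members were called, among them Slc2a4 (log2 fold change −1.06, adjusted p = 0.00181 in edgeR's quasi-likelihood test), against a background of 37.8% of genes. Without SHR 3, 4 were called, at 18% of genes. Without SHR 1 or any 1 of the 3 WKY libraries none was called, and the adjusted p of Pik3r1 was then 0.0542 to 0.0682, at a background of 2.93% to 6.86% of genes.

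The 9 SHR-strain libraries were next set against WKY together, which adds the drug-treated rats and uses the same 3 WKY libraries as before. Akt2 was higher, by 0.44 ± 0.10 on the log2 scale (SE; adjusted p = 0.0171 in edgeR's quasi-likelihood test over 14452 genes), and Pik3r1 was lower, by −0.93 ± 0.23 (adjusted p = 0.0209). These were the only members called, 2 of 10, with 19.9% of all genes called (11.3% higher and 8.55% lower). They were also the only members whose groups did not overlap, in 9 of 9 libraries each, which 16.4% of genes showed (9.81% higher and 6.57% lower).

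For Akt2 the treated libraries were at 269, 275 and 265 CPM in ARB and at 274, 242 and 271 CPM in ARNI. The order of the group means was SHR, ARB, ARNI and then WKY, at 280 ± 33.1, 270 ± 5.31, 263 ± 17.8 and 187 ± 3.73 CPM (SD, n = 3), and only the step to WKY exceeded the spread. For Pik3r1 the treated libraries were at 103, 218 and 190 CPM in ARB and at 126, 197 and 156 CPM in ARNI. Its group means were 280 ± 14.1 CPM in WKY, 170 ± 60.1 in ARB, 160 ± 35.8 in ARNI and 140 ± 29.5 in SHR (SD, n = 3), and the last 3 did not differ beyond their spread.

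The other members were not called in this wider comparison. Igf1r had a log2 fold change of 0.67 ± 0.28 (SE; adjusted p = 0.112 in edgeR's quasi-likelihood test), close to its value for SHR alone with a larger error, and ARB 3 and ARNI 2 were below the lowest WKY library. Without ARNI 2, 4 members were called (Akt2, Pik3r1, Igf1r and Slc2a4) at a background of 31.9%, and without ARB 3, 3 were called (Akt2, Pik3r1 and Igf1r) at 22.3%. Without any 1 WKY library none was called at backgrounds of 3.06% to 4.35%, with adjusted p of 0.0681 to 0.0813 for Akt2 and 0.0811 to 0.0880 for Pik3r1.

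**Figure D2:**
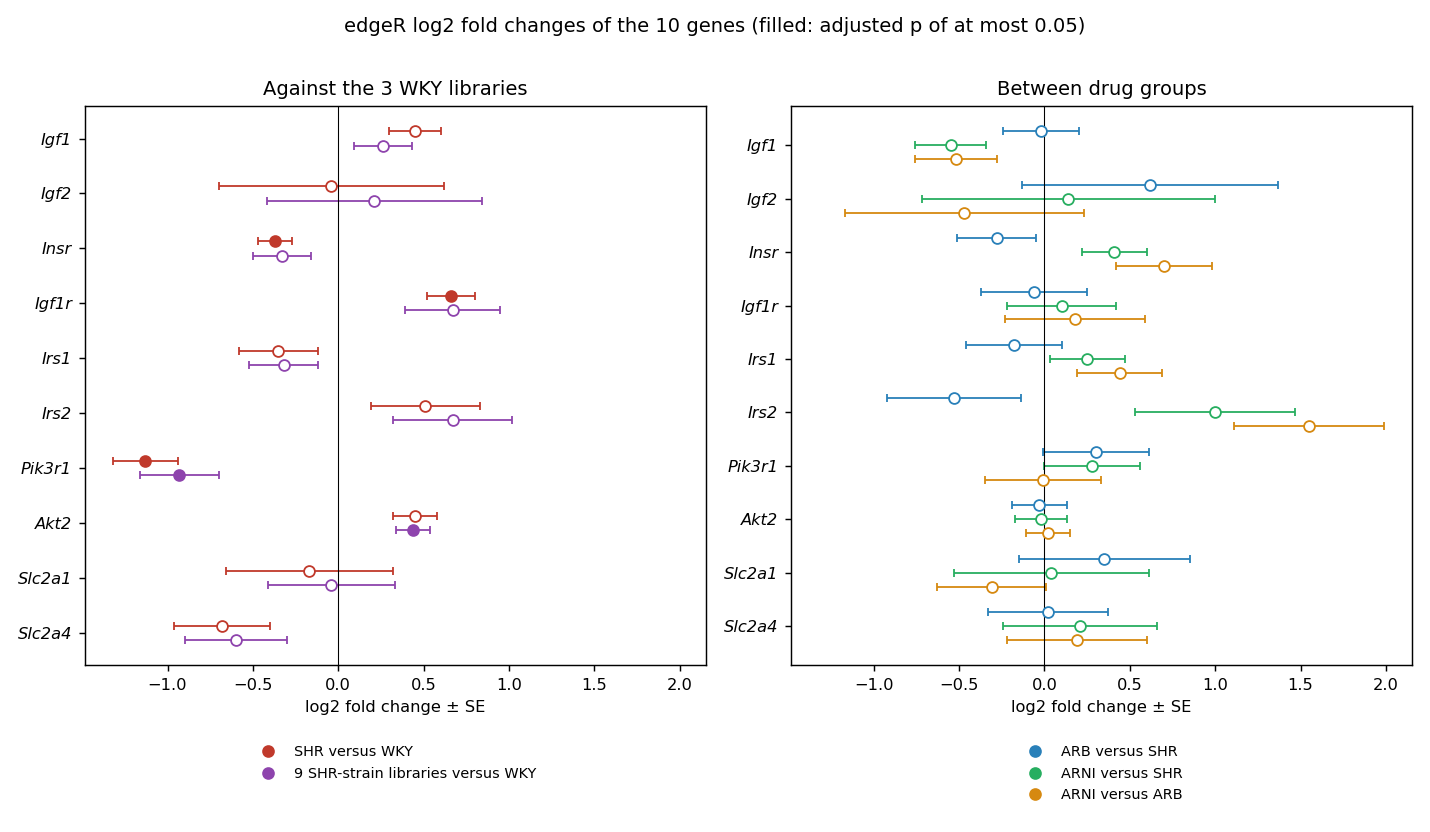
Log2 fold change with its SE (horizontal axis) of each gene from edgeR, against the 3 WKY libraries on the left and between the SHR-strain groups on the right; filled points have an adjusted p of at most 0.05. Pik3r1 was filled in both comparisons with WKY, Igf1r and Insr for SHR alone and Akt2 for the 9 libraries, and no point was filled between drug groups.

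Because the chamber markers differed within the SHR strain too, each gene was fitted against the chamber marker score within the 9 SHR-strain libraries, with the drug groups as a covariate. Slc2a4 fell with the score, by 0.081 ± 0.010 log2 units per unit of score (SE; adjusted p = 0.00175 in edgeR's quasi-likelihood test over 14278 genes), and Igf1r rose with it, by 0.075 ± 0.012 (adjusted p = 0.00369). These were 2 of 10 members, and 24.6% of all genes had a called slope (10.9% positive and 13.6% negative). Both stayed called when any 1 of the 9 libraries was left out, the adjusted p reaching at most 0.0182 for Slc2a4 and 0.0439 for Igf1r, both without ARNI 2.

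The values of these 2 genes set the 6 libraries with atrial markers apart from the rest, but did not change evenly with the score. Slc2a4 was at 275 to 350 CPM in the 6 libraries with atrial markers, at 542 and 489 CPM in SHR 2 and ARB 3, which carried both sets, at 616 CPM in ARNI 2 and at 548 to 579 CPM in WKY. Igf1r ran the other way, at 50.0 to 59.4 CPM in the 6, at 34.8 and 22.4 CPM in SHR 2 and ARB 3, at 23.3 CPM in ARNI 2 and at 25.1 to 28.0 CPM in WKY. For both genes ARNI 2, an SHR-strain library, lay nearer to WKY than to the other ARNI libraries.

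For Akt2 and Pik3r1 edgeR called no slope. Akt2 had a slope of −0.003 ± 0.009 per unit of score (SE; adjusted p = 0.833 in edgeR's quasi-likelihood test), and its 242 CPM in ARNI 2 was above the WKY range of 184 to 191 CPM and just below the 251 to 316 CPM of the 6 libraries with atrial markers. Pik3r1 had a slope of −0.050 ± 0.016 (SE; adjusted p = 0.0609), which DESeq2 called (adjusted p = 0.0154). Its 197 CPM in ARNI 2 was below the WKY range of 264 to 289 CPM and above every library with atrial markers except ARB 2, at 218 CPM, the others being at 103 to 156 CPM. Of the remaining members, Igf2 had the steepest slope, 0.114 ± 0.049 (SE; adjusted p = 0.134), and Insr, Irs1, Irs2, Igf1 and Slc2a1 had slopes between −0.049 and 0.031, none called.

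When the score was added to the comparisons with WKY, which extrapolates it beyond the SHR-strain libraries, no member was called for SHR or for the 9 libraries. Igf1r and Slc2a4 then changed sign, to −0.65 and 0.65 for SHR against WKY, while Akt2 kept 0.50 ± 0.17 (SE; adjusted p = 0.17 in edgeR's quasi-likelihood test). Pik3r1 was then at −0.31 ± 0.319.

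**Figure D3:**
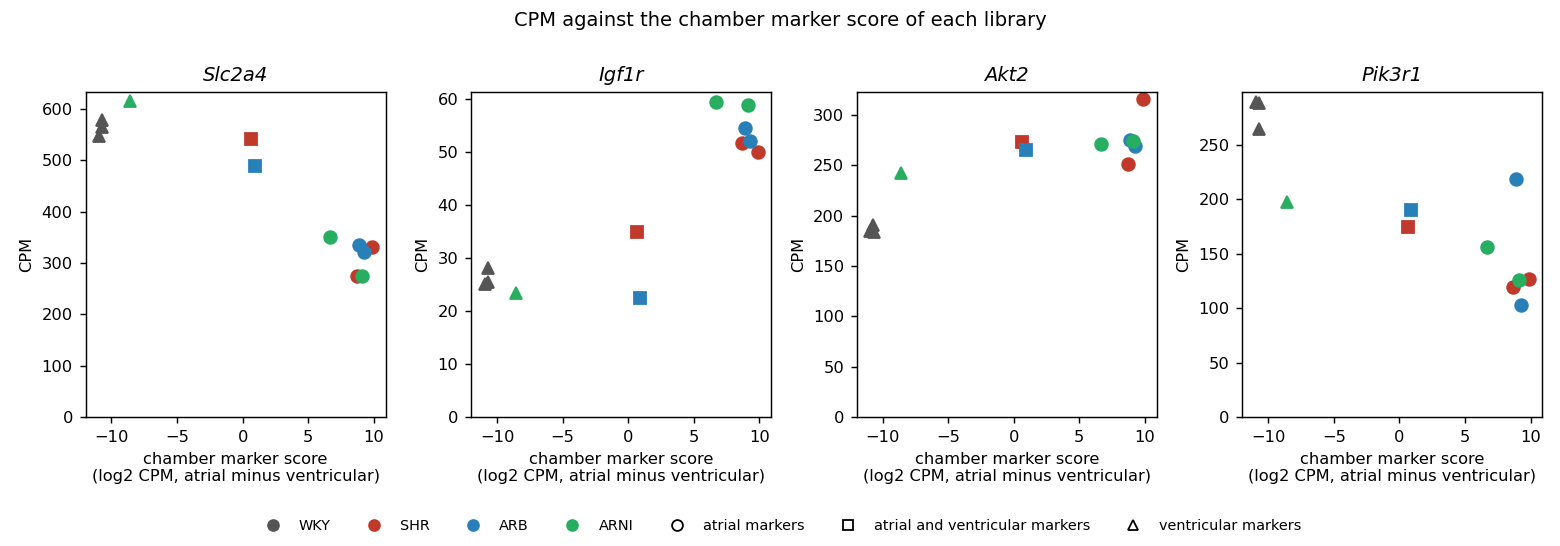
CPM (vertical axis, from 0) of Slc2a4, Igf1r, Akt2 and Pik3r1 against the chamber marker score of each of the 12 libraries (horizontal axis, log2 CPM of atrial minus ventricular markers), coloured by group. Slc2a4 stepped down and Igf1r stepped up from the triangles to the circles, whereas Akt2 separated WKY from the other 9 libraries.

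The drug comparisons ask whether valsartan or sacubitril/valsartan changed these genes in hypertensive rats. No gene was called by edgeR in ARB against SHR, ARNI against SHR or ARNI against ARB, a background of 0% in each. At an unadjusted p under 0.05 there were 225, 227 and 539 genes (1.61%, 1.63% and 3.86%), of which 0, 1 and 2 were members, and DESeq2 called 3, 9 and 23 genes, none of them a member. In ARNI against SHR same-numbered libraries deviated together, among them ARNI 2 and SHR 2, which both carried ventricular markers. There a fit with the replicate number as a block gave 731 genes (5.24%) at an unadjusted p under 0.05. Of these 2 were members, Irs2 and Igf1, again with no gene called. The comparisons with SHR share the SHR libraries, and the comparison of ARNI with ARB shares both treated groups with them. Irs2, Igf1 and Insr are given in full because each had an unadjusted p under 0.1 in at least 1 of the 3 comparisons, a choice made after their values were seen.

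Irs2 was at 36.6, 58.5 and 23.4 CPM in ARB and at 58.8, 144 and 120 CPM in ARNI, against 35.2, 48.4 and 90.8 CPM in SHR. Every ARNI library was above every ARB library, narrowly so for ARNI 1 against ARB 2, and both overlapped SHR. The log2 fold change was 1.55 ± 0.44 (SE) for ARNI against ARB, a level 2.93-fold higher, with an unadjusted p of 0.0119 and an adjusted p of 0.993 in edgeR's quasi-likelihood test. Irs2 was the only member with groups apart in a drug comparison, and this held for ARNI against ARB alone. Of all genes tested, 10.5% had groups that did not overlap between ARNI and ARB, 6.56% between ARNI and SHR and 5.39% between ARB and SHR. Against SHR the value was 1.0 ± 0.47 for ARNI (unadjusted p = 0.0763, adjusted p = 0.999) and −0.53 ± 0.39 for ARB. With the replicate block the ARNI value was 0.98 ± 0.265 (unadjusted p = 0.0137, adjusted p = 0.844). ARNI 2, the highest library, carried ventricular markers. Without the 3 libraries that had such markers, which leaves 2 in each group, the Irs2 value was 0.93 ± 0.393 for ARNI against ARB and 0.57 ± 0.534 for ARNI against SHR.

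Igf1 was at 88.4, 152 and 121 CPM in ARB and at 63.4, 79.8 and 97.4 CPM in ARNI, against 139, 95.6 and 139 CPM in SHR. Here the ARNI libraries were the lowest but overlapped both other groups. The log2 fold change was −0.55 ± 0.21 (SE) for ARNI against SHR, with an unadjusted p of 0.0398 and an adjusted p of 0.999 in edgeR's quasi-likelihood test, −0.52 ± 0.24 for ARNI against ARB and −0.02 ± 0.22 for ARB against SHR. The group means of Igf1 were in the order SHR, ARB, WKY and ARNI, at 125 ± 25.2, 120 ± 31.9, 82.7 ± 9.75 and 80.2 ± 17.0 CPM (SD, n = 3). Macrophages and fibroblasts are known sources of this growth factor. Macrophage markers summed to 74.2 to 218 CPM in SHR, 109 to 312 CPM in ARB and 45.8 to 158 CPM in ARNI, and fibroblast markers to 1342 to 4877, 1518 to 2578 and 1274 to 3281 CPM. Their part in the Igf1 values was not tested, and in bulk tissue fewer cells of a type and less RNA per cell cannot be told apart.

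Insr was at 44.7, 54.4 and 25.8 CPM in ARB and at 84.8, 51.3 and 57.8 CPM in ARNI. ARB 3, with both sets of chamber markers, was the lowest library and ARNI 1 the highest, and the groups overlapped. The log2 fold change was 0.70 ± 0.28 (SE) for ARNI against ARB, with an unadjusted p of 0.0443 and an adjusted p of 0.993 in edgeR's quasi-likelihood test, 0.41 ± 0.19 for ARNI against SHR and −0.28 ± 0.23 for ARB against SHR.

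The other 7 members had log2 fold changes between −0.18 and 0.62 for ARB against SHR, between −0.02 and 0.28 for ARNI against SHR and between −0.47 and 0.44 for ARNI against ARB, with SEs from 0.13 to 0.86. Akt2 differed by −0.03 to 0.02, with SEs of 0.13 to 0.16. Igf2 had the widest errors. It was at 107, 138 and 34.4 CPM in ARB and at 130, 27.4 and 35.1 CPM in ARNI, so that each SHR-strain group held at least 1 library above 100 CPM and at least 1 below 36 CPM. Slc2a1 was at 34.3, 34.5 and 44.1 CPM in ARB and at 33.8, 34.8 and 18.1 CPM in ARNI. The lowest Slc2a1 libraries, SHR 3 and ARNI 3, had the highest summed fibroblast markers, 4877 and 3281 CPM, and the part of those cells was not tested. Irs1 was at 13.1, 13.2 and 6.97 CPM in ARB and at 16.8, 11.9 and 14.6 CPM in ARNI, and had at least 87.93 counts in every library.

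Transcript lengths were not used here, so levels were not ranked between genes. Shares within a pair of genes were instead compared between groups. GLUT4 made up 94.8 ± 0.103% of GLUT1 plus GLUT4 counts in WKY, 93.1 ± 2.98% in SHR, 90.9 ± 0.706% in ARB and 92.9 ± 3.37% in ARNI (SD, n = 3). Igf2 made up 40.1 ± 6.20%, 28.8 ± 17.7%, 41.5 ± 17.1% and 39.8 ± 23.8% of the counts of both IGFs. In 8 two-sided exact permutation tests the p-values ran from 0.3 to 1, and adjusted from 0.64 to 1, where 3 libraries against 3 cannot give less than 0.1.

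The genes most like each member, by Pearson correlation of log2 CPM over the 12 libraries among 14452 genes, are a description of these libraries, which share strain and chamber markers. For Slc2a4 the nearest were LOC100911356 (r = 0.995), Pdhb (0.994) and Macrod1 (0.994). Pdhb codes for a subunit of pyruvate dehydrogenase. For Igf1r they were Tns4 (0.971), Myh10 (0.969) and Atf6 (0.965), for Insr Glg1 (0.977), Ttll4 (0.957) and Golga3 (0.955), and for Akt2 Gtf3c6 (0.967), Tmem182 (0.967) and Polr3gl (0.947). For Pik3r1 they were Cth (0.966), Fam241a (0.950) and Spag1 (0.949). Irs2 had lower values, with Nr4a3 (0.867), an immediate-early nuclear receptor, Zc3h12a (0.858) and Cnnm4 (0.844). The first gene was Hcfc1 for Irs1 (0.935), Cnr2 for Igf1 (0.898), Prrt4 for Igf2 (0.900) and Anks1a for Slc2a1 (0.935).

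The rest of the pathway was taken as 113 further genes in 13 lists by role, of which 104 were tested in SHR against WKY. Of these, 31 were called, 13 higher and 18 lower, and the other 73 did not pass, against 20.6% of all genes. Their median log2 fold change was −0.06, beside 0.01 for all genes tested. Without SHR 2, 55 were called of 105 tested, and without any 1 of the WKY libraries 3 to 5, at the backgrounds given above for the members. Insrr, Irs4, Igfbp1 and Igfals, at no more than 3 counts in any library, were too low to test.

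The IGF binding proteins and clearance factors held 6 calls among 9 tested, 5 higher and 1 lower, where 12.3% of all genes were called higher and 8.26% lower. Igfbp2 rose from 0.682 to 0.800 CPM in WKY to 3.94 to 8.20 CPM in SHR (log2 fold change 2.78 ± 0.34, adjusted p = 0.00588 in edgeR's quasi-likelihood test). Igfbp5, at 51.3 to 71.4 CPM in WKY and 139 to 322 CPM in SHR, rose by 1.68, and Igfbp6 and Igfbp4 rose by 1.65 and 0.66. These proteins hold IGFs in the circulation and tissue. Stc1 rose by 1.56 and Stc2 fell by 1.08, both of which code for stanniocalcins that inhibit the proteases releasing IGFs from their binding proteins. In ARNI 2 Igfbp2 was at 0.157 CPM and Igfbp5 at 29.2 CPM, below WKY, and both genes had called positive slopes on the chamber marker score (0.185 ± 0.042 and 0.151 ± 0.021, adjusted p = 0.0166 and 0.00255). With all 9 SHR-strain libraries set against WKY, 2 of 10 were called, Igfbp2 and Stc2, where 19.9% of all genes were called. The adjusted p in edgeR's quasi-likelihood test was 0.0932 for Igfbp5, 0.0589 for Igfbp6, 0.153 for Igfbp4 and 0.0517 for Stc1.

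Among adaptors and their inhibitors, Irs3 fell by 0.69 and Ptprf, a receptor phosphatase that acts on the insulin receptor, rose by 1.19. With all 9 SHR-strain libraries neither was called (adjusted p = 0.297 and 0.0657 in edgeR's quasi-likelihood test). Ptprf was at 12.6 CPM in ARNI 2 and 14.6 CPM in ARB 3, against 13.9 to 16.2 CPM in WKY. Irs3 was low, at 4.77 to 5.07 CPM in WKY and 2.81 to 3.63 CPM in SHR. Among PI3K subunits, Pik3cg and Pik3r5, catalytic and regulatory parts of the PI3K-gamma form of leukocytes, fell by 1.15 and 1.19. Pik3cg was at 10.2 to 11.9 CPM in WKY and at 3.88 to 8.67 CPM in SHR. Pik3r5 was low, at 1.78 to 2.00 CPM in WKY and 0.788 to 1.08 CPM in SHR. Macrophage markers summed to 138 to 196 CPM in WKY and 74.2 to 218 CPM in SHR, and the part of such cells was not tested. Of the inhibitors of phosphoinositide and Akt signalling, Inpp5d, a lipid phosphatase of blood cells, fell by 0.95 and Trib2 by 0.90. Eif4ebp1, the translation repressor that mTOR inactivates, rose by 0.92, from 34.1 to 39.3 CPM in WKY to 66.1 to 88.7 CPM in SHR.

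Of 4 FoxO factors 3 were called, Foxo1 and Foxo3 lower and Foxo6 higher, where 20.6% of all genes were called. Foxo1, which drives stress and fasting genes when Akt is off, fell by 0.64 ± 0.08 (SE; adjusted p = 0.00735 in edgeR's quasi-likelihood test), from 39.4 to 42.8 CPM in WKY to 26.7 to 31.2 CPM in SHR, whereas Foxo6 rose by 1.82 ± 0.18 (adjusted p = 0.00332). Of 10 FoxO target genes 3 were called, all lower, where 8.26% of all genes were called lower. Pdk4, which shuts off pyruvate dehydrogenase, fell by 1.81, Txnip, which restrains glucose uptake, by 0.99, and Fbxo32, the ubiquitin ligase atrogin-1, by 0.64. Pdk4 and Txnip also had called negative slopes on the chamber marker score (−0.124 ± 0.024 and −0.039 ± 0.012, adjusted p = 0.0089 and 0.0475), and in ARNI 2 they were at 222 and 1064 CPM, inside and just above their WKY ranges of 176 to 232 and 935 to 1044 CPM. Txnip was also at 780 and 1012 CPM in ARNI 1 and ARNI 3, which carried atrial markers. In the libraries with both marker sets Txnip was at 711 CPM (SHR 2) and 466 CPM (ARB 3). Foxo3, at −0.41, and Fbxo32 were outside the 20 largest changes and are named to complete their lists. Of the other glucose transporters, Slc2a5 fell by 1.76, from 0.901 to 1.59 CPM in WKY to 0.335 to 0.58 CPM in SHR. These levels are low, as 3 counts correspond to 0.19 to 0.267 CPM. With all 9 SHR-strain libraries Slc2a5 was not called (adjusted p = 0.119 in edgeR's quasi-likelihood test). Slc2a12 fell by 1.02, and in GLUT4 traffic Sort1, the sorting receptor of GLUT4 stores, rose by 1.16.

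With all 9 SHR-strain libraries, 28 of 106 tested pathway genes were called, 9 higher and 19 lower, against 19.9% of all genes, and without ARNI 2 there were 47. The largest was Igfbp2, higher by 2.65 ± 0.79 (SE). Foxo6 (1.38), Sort1 (1.05) and Eif4ebp1 (1.0) were also higher, as were Rhoq (0.57), a small GTPase of GLUT4 traffic, Mapkap1 (0.47), a subunit of the mTOR complex that phosphorylates Akt, and Socs2 (0.43), a brake on growth hormone signalling. All 3 FoxO targets that were lower in SHR alone were lower here too, Pdk4 at −1.51, Fbxo32 at −0.79 and Txnip at −0.77, beside Foxo1 at −0.59. Of the PI3K subunits, Pik3cg (−1.13), Pik3r5 (−0.85) and Pik3cb (−0.46) were lower, whereas Pik3r2 (0.30), outside the 20 largest changes, was higher. The lipid phosphatases Inpp5d (−0.87) and Inppl1 (−0.50) were lower. Stc2 (−1.12), Slc2a12 (−0.95) and, in GLUT4 traffic, Tbc1d1 (−0.55) were lower as well.

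On the chamber marker score 26 of 106 had a called slope, 10 positive and 16 negative, against 24.6% of all genes, and without ARNI 2 there were 7. Beside Igfbp2 and Igfbp5, the positive slopes were led by Ptprf (0.093 ± 0.016) and Sort1 (0.078 ± 0.008), the latter close in size to that of Igf1r. Grb10 (0.064), an adaptor that inhibits the receptors, Igf2r (0.058), which clears Igf2, Shc1 (0.041) and Phlpp1 (0.030), a phosphatase of Akt, were also positive. None of the 4 FoxO factors had a called slope. Of 10 FoxO targets 4 had one, all negative, where 13.6% of all genes had a called negative slope. These were Pdk4, Sesn1 (−0.059), Txnip and Trim63 (−0.025), the last outside the 20 largest. Slc2a12 had a slope of −0.077 ± 0.008, close to that of Slc2a4, and Tbc1d4 (−0.043), the Akt substrate that holds GLUT4 inside the cell, was negative too. The other negative slopes among the 20 largest were those of Trib2 (−0.056), Eif4e (−0.049), Grb14 (−0.047), Map2k2 (−0.034), Inppl1 (−0.033) and Akt1 (−0.032).

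**Figure D4:**
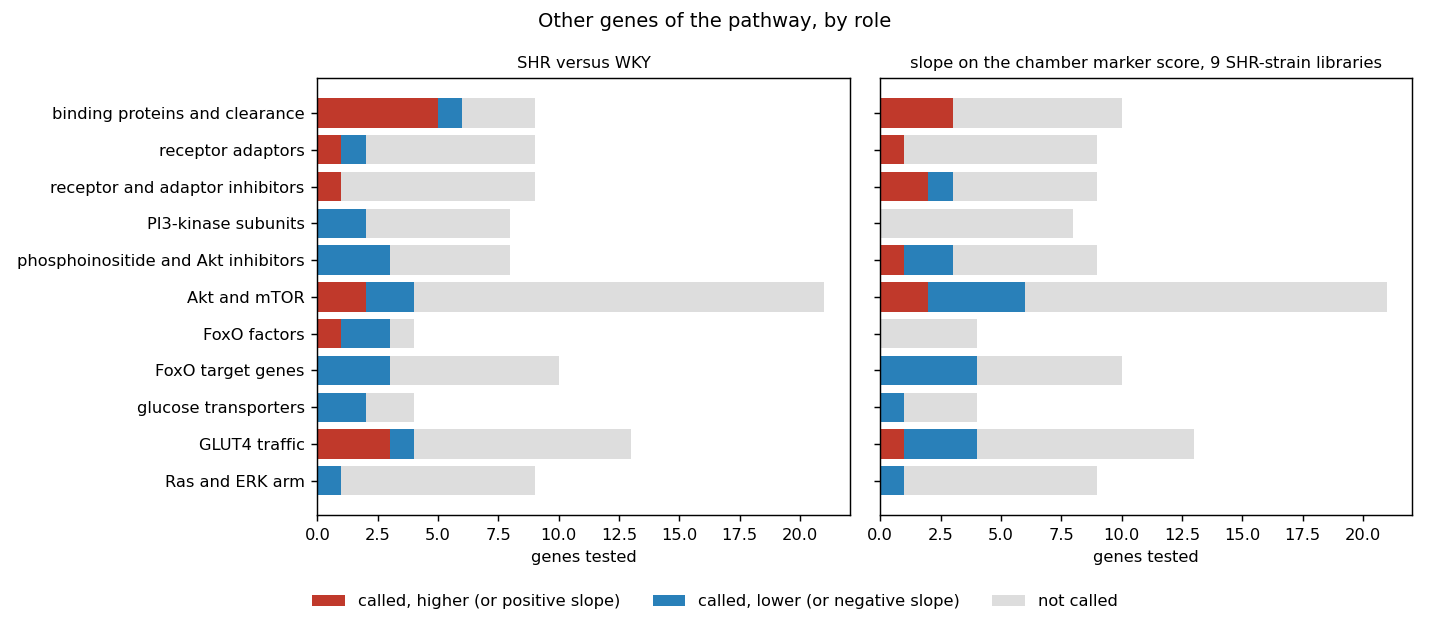
Number of genes tested in each list of other pathway genes (horizontal axis), split into those called higher, called lower and not called, for SHR against WKY on the left and for the slope on the chamber marker score on the right. The binding proteins and clearance list held 6 calls of 9 tested on the left and 3 of 10 on the right. Of all genes, 20.6% and 24.6% were called.

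In the drug comparisons no other pathway gene was called by edgeR, and DESeq2 called 1, Txnip in ARNI against ARB. The largest log2 fold changes for ARB against SHR were 2.07 ± 0.96 (SE) for Trarg1, −1.0 ± 0.94 for Slc2a3 and 0.90 ± 0.29 for Pik3r5. For ARNI against SHR they were 1.76 ± 0.86 for Trarg1, 1.29 ± 0.71 for Pdk4 and −0.97 ± 0.18 for Foxo6. Trarg1, a regulator of GLUT4 traffic in fat cells, was at 66.0 CPM in ARB 2 and 47.2 CPM in ARNI 3, the libraries with white adipocyte markers, and at 3.98 to 9.24 CPM in the other 10. For ARNI against ARB the largest were 1.68 ± 0.65 for Pdk4, 1.12 ± 0.23 for Txnip and 0.84 ± 0.37 for Trib1. Txnip was at 780, 1064 and 1012 CPM in ARNI and at 478, 431 and 466 CPM in ARB, with no overlap, and its unadjusted p was 0.00232 and its adjusted p 0.993 in edgeR's quasi-likelihood test.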

How the data were processed

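RNA-seq libraries of rat left atrium (12, in 4 groups of 3) were read single-end at 50 bases. Per the study's methods, reads were cleaned with SOAPnuke (1.5.2), and gene expected counts were estimated with RSEM (1.2.12). The submitters' processing notes name HISAT2 (2.0.4), Bowtie2 (2.2.5) and build Rnor_6.0. The authors deposited these expected counts, of which 23.6% were not whole, as 1 table; reads that fit several genes are split by such an estimate. The table also holds 2 deposited columns of the authors' own comparison, log2 fold changes and p-values, which were not used. No strand setting is given in the sources used here, so overlapping antisense transcripts cannot be told apart from the members.

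Counts were rounded and tested with edgeR (4.0.16; R 4.3.3): filterByExpr, TMM scaling, quasi-likelihood test, Benjamini-Hochberg adjustment over all genes tested, called at an adjusted p of at most 0.05. Each comparison was fitted on its own groups. The slope on the chamber marker score used the 9 SHR-strain libraries with group as a covariate. The statistics were checked on simulated counts, for edgeR with the same dispersion in both groups. Replicates differed more within SHR than within WKY, a case which that check did not cover. CPM was computed from library totals; log2 CPM used a prior count of 1. DESeq2 (1.42.0) was an alternative, as were other scalings, no filter, a replicate block, 1 fit of all libraries, the score as a covariate and leaving out each library. SE is the log2 fold change divided by the square root of the F statistic. Replicates differed by 4.03 to 231 times their sampling noise (chi-square per degree of freedom), so no library was counted as a repeat. Libraries were grouped by the bracketed library names; 6 titles and 3 phenotype entries contradict them, and all 12 strain entries read Wistar-Kyoto.

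Libraries with the same number deviated from their group means together in ARNI against SHR (correlations 0.19 to 0.51, each pair above 0.1). There the numbers were taken as pairing the samples, a hint from the data and not from the labels. The result of the block is given beside the main one. Of these pairs, ARNI 2 and SHR 2, at 0.46, both carried ventricular markers, so pairing and chamber markers cannot be told apart there. In the other comparisons with shared numbers not every pair deviated together. The correlations ran from −0.07 to 0.03 for SHR against WKY, −0.25 to 0.42 for ARB against SHR and −0.45 to 0.52 for ARNI against ARB. The highest of these were ARB 1 with SHR 1 (0.42) and ARNI 1 with ARB 1 (0.52), as large as those of ARNI against SHR. Libraries with different numbers that carried ventricular markers correlated at 0.51 (ARB 3 with SHR 2) and 0.58 (ARNI 2 with ARB 3). The members, the pathway lists and the marker lists were chosen with earlier results of these data known. All members were named; other pathway genes were named when called, up to 20 by size of the log2 fold change in each comparison, or as the 3 largest values where fewer than 3 were called; the 3 most alike genes were given by Pearson correlation. Results for some single genes that this rule names are not reported here. Totals of 11252361 to 15823525 counts set the counting error; the replicates, 3 per group, set the rest. Motif matches and promoters came from RefSeq tables of GRCr8, matched by gene ID.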

Additional observations from a re-analysis of the deposited data

How the results depend on the processing

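Each adjusted p sets a difference or slope against a spread estimated from these libraries, of which there are 3 a group. Among the log2 fold changes and slopes given for members one by one, 224 of the values under alternatives that kept all libraries stayed on the same side of the threshold with the same sign, 14 changed sign, 5 passed the threshold anew and 9 no longer passed; with 1 library left out these numbers were 280, 17, 9 and 18. With the chamber marker score as a covariate 0 members were called for SHR against WKY and 0 for the 9 SHR-strain libraries against WKY, the latter alternative chosen after seeing the data; the cause was not tested. Leaving out 1 library gave 0 to 5 members called for SHR against WKY, 0 to 4 for the 9 libraries and 2 to 3 for the slope. Signs changed with the score for SHR against WKY in Igf1r (−0.65), Slc2a1 (0.61) and Slc2a4 (0.65), and for the 9 libraries in Igf1r (−0.58), Igf2 (−1.74), Slc2a1 (0.69) and Slc2a4 (0.61). Without scaling they changed in Igf2 for SHR against WKY (0.08), in Slc2a1 for the 9 libraries (0.04) and in the slopes of Akt2 (0.010) and Igf1 (0.008). With a replicate block they changed in Igf2 for the 9 libraries (−0.07) and in the slopes of Irs2 (0.019) and Igf1 (0.008). Leaving out 1 library, values crossed 0 within these ranges: Igf2 −1.19 to 0.40 and Slc2a1 −0.59 to 0.25 for SHR against WKY, Igf1 −0.17 to 0.16 for ARB against SHR, Igf2 −0.17 to 0.43 and Slc2a1 −0.17 to 0.10 for the 9 libraries, slopes of Irs2 −0.048 to 0.043 and Igf1 −0.017 to 0.010, GLUT4 shares −1.50 to 1.76 percentage points for ARNI against SHR, and Igf2 shares −2.73 to 20.4 for ARNI against SHR and −15.4 to 5.36 for ARNI against ARB. The replicate block called 2 members for SHR against WKY in place of 3 (Insr, adjusted p = 0.0952 in edgeR's quasi-likelihood test, was lost) and changed no other call of a member; it called 1030 genes in place of 2837 there and 2329 in place of 3507 for the slope. Numbers of all genes called also moved over 1.5 times for SHR against WKY in 1 fit of all libraries (1178), with the score (165) and with 1 library left out (415 to 5310), for the 9 libraries with the score (360) and with 1 left out (452 to 4719), and for the slope with 1 left out (1335 to 3787). DESeq2 called 3 genes for ARB against SHR, 9 for ARNI against SHR and 23 for ARNI against ARB, where edgeR called 0. Of the other pathway genes, 31 calls for SHR against WKY became 9 with the block, 8 in 1 fit of all libraries, 2 with the score and 3 to 55 with 1 library left out. The 28 for the 9 libraries became 3 with the score and 2 to 47 with 1 left out, and the 26 slopes became 17 without a filter, 15 with the block and 7 to 25 with 1 left out. The lowest count of any member in a library was 87.93, for Irs1 in ARB 3. In WKY some members varied little between libraries, such as Slc2a1 at 359, 345 and 366.99 counts. Their counting error was not separated from that spread.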
